A study of Homo sapiens with 6 samples.

Results

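The surface markers examined here were 9 genes whose proteins are used to recognise or sort progenitor and stem-like cells, namely EPCAM, PROM1 (CD133), CD24, CD44, LGR5, NCAM1 (CD56), THY1 (CD90), ALCAM (CD166) and KIT (CD117). They were selected by gene symbol, and all 9 had a row in the expression table of 23569 genes. The libraries came from TFK1, an established human cholangiocarcinoma (bile duct cancer) cell line. In 3 libraries (oeNC) the cells carried the negative control, and in the other 3 (oeSTUB1) they overexpressed STUB1, an E3 ubiquitin ligase also called CHIP. The study's methods describe stable lines made by lentiviral transduction and puromycin selection, the labels list no treatment for either group, and no source states whether the 3 libraries of a group came from separate cultures. The p-values therefore measure the spread between these libraries, which may be technical. The study sought genes regulated by STUB1 through UHRF1 and the DNA methyltransferase DNMT1.

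Surface molecules of this kind are not the property of a single cell type. EPCAM and CD24 are broadly expressed by biliary epithelium and its tumours, CD44 and ALCAM are adhesion molecules found on many epithelial and mesenchymal cells, and PROM1, NCAM1, THY1, KIT and LGR5 each label restricted progenitor populations in liver, bile duct, intestine, nerve, stroma or blood. Combinations of them have been used to enrich tumour-initiating cells from cholangiocarcinoma, so the same cell population can be high for some of these markers and lack others.

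The 9 genes covered a wide range of levels, and the changes after STUB1 overexpression ran in both directions. CD24 and CD44 were higher in oeSTUB1 cells by 1.49 and 1.55 times, and the oeNC mean was 2.2 times the oeSTUB1 mean for EPCAM and 6.4 times for KIT, which was scarce in both groups. ALCAM showed no significant change. LGR5 and THY1 were close to absent from oeNC cells and had more fragments in each oeSTUB1 library, and NCAM1 and PROM1 remained at a few fragments per library. FPKM denotes fragments scaled to transcript length and to the size of the library, so levels can be set side by side between genes.

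Of the 9 genes, 5 averaged 0.1 FPKM or more over the 6 libraries and were tested with limma on log2(FPKM + 0.1), and 4 (PROM1, LGR5, NCAM1 and THY1) fell below this filter. A gene was called at an adjusted p under 0.05. Among the 5 tested genes, 2 were called higher, where 7.01% of the 15353 genes tested in the whole table were called higher, and 2 were called lower, where the whole table gave 6.59%. The median log2 fold change was 0.03 over the 5 genes and 0.02 over all tested genes. Because KIT passed the filter through its oeNC values, these counts are a description of the tested genes and not of all 9. The 3 values of one group lay wholly above those of the other for CD24 and CD44 (in the whole table, 21.5% of tested genes were separated in this direction) and wholly below for EPCAM and KIT (17.3%).

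STUB1 itself, which checks the labels, measured 32.93, 33.03 and 30.85 FPKM in oeNC and 61.39, 74.97 and 61.89 FPKM in oeSTUB1 libraries, a log2 fold change of 1.03 (adjusted p = 0.00064, limma). Library totals were between 33106564 and 36744521 fragments. One library, oeSTUB1 replicate 2, stood apart from the other oeSTUB1 libraries, with a median absolute log2 difference from them of 0.279 where the other 5 libraries had 0.081 to 0.183. Calls among the markers and their related genes that changed without it are given with that value. As a check of the cell line, the epithelial keratins KRT8 and KRT18 had means of 3220 and 3960 FPKM in oeNC cells and the adhesion molecule CDH1 62.6 FPKM. KRT7 was also abundant (502 FPKM), whereas KRT19, a keratin used to define biliary cells, averaged 0.453 FPKM in oeNC and 2.97 in oeSTUB1 libraries.

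**Figure D1:**
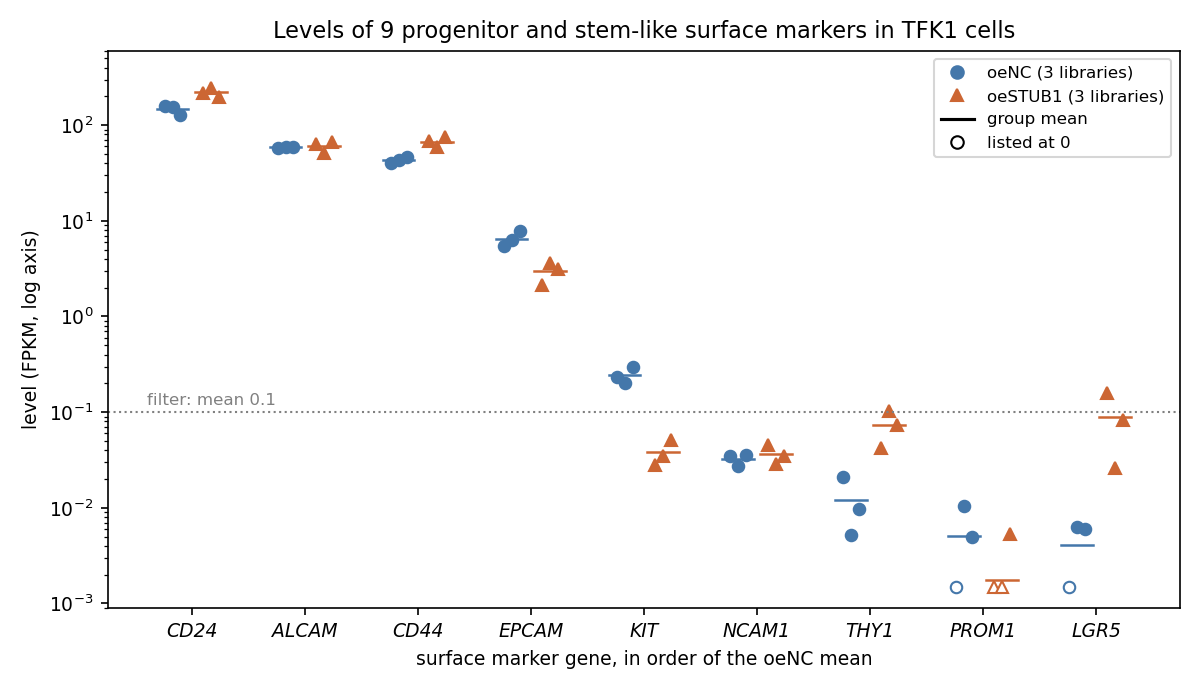
Level of each marker in every library (FPKM, log axis), with circles for oeNC, triangles for oeSTUB1, a line at each group mean (n = 3) and open symbols for values listed at 0. CD24, ALCAM, CD44 and EPCAM lie above 2 FPKM in every library, the other markers lie below 0.3 FPKM, and the oeSTUB1 triangles sit above the circles for CD24, CD44, THY1 and LGR5 and below them for EPCAM and KIT.

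In oeNC cells the order of the mean levels was CD24 (148 FPKM), ALCAM (58.8 FPKM), CD44 (43.4 FPKM), EPCAM (6.51 FPKM), KIT (0.244 FPKM), NCAM1 (0.0327 FPKM), THY1 (0.0119 FPKM), PROM1 (0.0051 FPKM) and LGR5 (0.00408 FPKM). Of all genes in the table, 98.8% had a lower oeNC mean than CD24 and 73.1% a lower one than EPCAM. Neighbours from CD24 down to THY1 did not overlap across the 3 libraries, while THY1, PROM1 and LGR5 overlapped. In oeSTUB1 cells CD44 (67.2 FPKM) stood above ALCAM (60.3 FPKM), although their libraries overlapped between 58.52 and 66.76 FPKM. LGR5 (0.0892 FPKM) and THY1 (0.0731 FPKM) came next after EPCAM (2.96 FPKM), above KIT (0.0382 FPKM) and NCAM1 (0.0364 FPKM), and PROM1 was last (0.00176 FPKM). Within the run of LGR5, THY1, KIT and NCAM1, each gene overlapped the next.

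To show the genomic starting point of markers that rose, did not change significantly or fell, the bases just upstream of CD24, ALCAM and KIT were taken from the RefSeq promoter table, which held a window for 5 of the 9 genes (PROM1, CD24, CD44, ALCAM and KIT) on build GRCh38.p14. Each line runs 5′ to 3′ on the gene's strand, and capitals mark the dinucleotide CG, the target of DNA methyltransferases, which reads the same on both strands. The stretches are chr6:106975628-106975877 (minus strand) for CD24, chr3:105366659-105366908 (plus strand) for ALCAM and chr4:54657707-54657917 (plus strand) for KIT, each ending where the gene begins in GENCODE release 29.
CD24: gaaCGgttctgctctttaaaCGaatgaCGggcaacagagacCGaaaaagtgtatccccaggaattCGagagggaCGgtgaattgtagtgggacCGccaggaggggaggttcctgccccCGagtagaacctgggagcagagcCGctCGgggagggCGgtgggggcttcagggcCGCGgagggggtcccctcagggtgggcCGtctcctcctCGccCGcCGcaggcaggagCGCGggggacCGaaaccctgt
ALCAM: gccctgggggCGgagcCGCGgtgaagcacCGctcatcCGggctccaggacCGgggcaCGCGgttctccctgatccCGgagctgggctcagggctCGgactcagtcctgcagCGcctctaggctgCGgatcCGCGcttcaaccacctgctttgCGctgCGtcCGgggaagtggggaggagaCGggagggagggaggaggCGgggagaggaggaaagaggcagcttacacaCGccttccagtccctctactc
KIT: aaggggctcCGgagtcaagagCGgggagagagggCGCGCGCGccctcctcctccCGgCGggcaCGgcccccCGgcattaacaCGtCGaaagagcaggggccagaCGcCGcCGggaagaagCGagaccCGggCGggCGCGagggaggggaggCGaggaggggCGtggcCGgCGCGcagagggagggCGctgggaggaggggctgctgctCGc
The CD24 and ALCAM stretches each held 20 CG dinucleotides in 250 bases, a number reached by 32.4% of the 35116 promoter windows of this length. The whole KIT window of 250 bases, of which the 211 bases upstream of the annotated gene are shown, held 34, a number reached by 6.84% of windows. The first CD24 window is shown out of 3. The second, partly inside the annotated gene, held 27 (17.7%), and the third, wholly inside it, held 17 (39%). The single CD44 window, which lies inside the annotated gene and is not shown, held 15 (42.9%). The 4 PROM1 windows, also inside the annotated gene and not shown, held from 5 (65.7%) to 26 (19.6%). At least 1 CG was present in 93.9% of all windows. The counts describe the sequence, and DNA methylation was not measured in these files.

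EPCAM encodes an epithelial adhesion glycoprotein whose cytoplasmic tail can be released by proteolysis and pass a signal to the nucleus. The gene occupies positions 47345158 to 47387601 of chromosome 2 (plus strand, GRCh38) and is protein coding, as are the other markers. Its level was 5.42, 6.34 and 7.776 FPKM in oeNC and 2.157, 3.593 and 3.121 FPKM in oeSTUB1 libraries, from 291 to 442 fragments in oeNC and 115 to 184 in oeSTUB1. Every oeSTUB1 value lay below the lowest oeNC value. The means were 6.51 ± 1.19 and 2.96 ± 0.732 FPKM (SD, n = 3 each), and the log2 fold change was -1.13 (95% interval -1.60 to -0.66, standard error 0.203, adjusted p = 0.0104, limma). EPCAM was called in all 15 alternative fits (adjusted p from 0.00348 to 0.0481), with log2 fold changes from -1.28 to -0.92 when single libraries were left out. In bulk RNA such as this, fewer cells expressing a gene and less RNA per cell cannot be told apart.

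The lower level of EPCAM was set beside its chromosome and a neighbouring transcript. Of 1031 tested genes on chromosome 2, 797 (77.3%) had a negative log2 fold change, with a median of -0.21, and 47 of the 1031 (4.56%) had a more negative value than EPCAM. EPCAM-DT, a noncoding transcript that diverges from the EPCAM start and was chosen after its values were seen, had 0.3878, 0.3778 and 0.2871 FPKM in oeNC and 0.09501, 0.2857 and 0.1384 FPKM in oeSTUB1 libraries (log2 fold change -0.78, adjusted p = 0.12, limma). The part of the chromosome-wide shift in the EPCAM result was not tested.

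Of 9 tested genes whose products bind or cut EPCAM, 1 (11.1%) was called higher and 1 (11.1%) lower, where the whole table gave 7.01% and 6.59%. The median log2 fold change was 0.13. CD9, a tetraspanin found in complexes with EPCAM, averaged 28.9 ± 1 FPKM in oeNC and 37.8 ± 3.55 in oeSTUB1 libraries (SD, n = 3 each), a log2 fold change of 0.38 (adjusted p = 0.027, limma). It was called in 11 of 15 alternative fits. ADAM17, the sheddase that releases the EPCAM ectodomain, had 19.3 ± 0.665 and 12.9 ± 0.969 FPKM, a log2 fold change of -0.59 (adjusted p = 0.0039, limma). CLDN7 and TSPAN8, which associate with EPCAM at the membrane, had log2 fold changes of -0.78 and -1.19 and did not pass the test (adjusted p = 0.066 and 0.069, limma), although CLDN7 did without oeSTUB1 replicate 2 (-1.02, adjusted p = 0.00587, limma).

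CD24 encodes a small, heavily glycosylated protein anchored in the membrane by a lipid, and it serves as a ligand of SIGLEC10 and P-selectin. The gene lies on chromosome 6 from 106969831 to 106975627 on the minus strand. Its level was 159.6, 156 and 128.5 FPKM in oeNC and 217.4, 244.4 and 199.3 FPKM in oeSTUB1 libraries. The groups did not overlap. The means were 148 ± 17 and 220 ± 22.7 FPKM (SD, n = 3 each), a log2 fold change of 0.58 (standard error 0.117, 95% interval 0.30 to 0.85, adjusted p = 0.0172, limma). CD24 was called in 13 of 15 alternative fits. The call was lost without oeNC replicate 2 (adjusted p = 0.0591, limma) and without oeNC replicate 3 (0.0706). The annotation holds processed pseudogene copies of CD24 on chromosomes 1, 15 and Y, none of which had a row in the table, so that reads shared with a copy make the CD24 values uncertain. Among its receptors, SIGLEC10 was below the filter (0.0596 ± 0.0728 FPKM in oeNC and 0.0665 ± 0.0607 FPKM in oeSTUB1, SD, n = 3 each), and the P-selectin gene SELP was not analysed here.

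CD44 encodes the main cell-surface receptor for hyaluronan. It lies on chromosome 11 from 35138870 to 35232402 on the plus strand. Its level was 40.53, 42.82 and 46.86 FPKM in oeNC and 67.96, 58.52 and 75.16 FPKM in oeSTUB1 libraries, with every oeSTUB1 library above every oeNC library. The means were 43.4 ± 3.21 and 67.2 ± 8.34 FPKM (SD, n = 3 each), a log2 fold change of 0.62 (standard error 0.109, 95% interval 0.37 to 0.88, adjusted p = 0.00887, limma). It was called in 14 of 15 alternative fits, the exception being the fit without oeNC replicate 1 (adjusted p = 0.0512, limma), and the log2 fold change was 0.72 without oeSTUB1 replicate 2. The antisense gene CD44-AS1 shares 84 of the 10004 exon bases of CD44, and no source states whether the counting used strand.

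**Figure D2:**
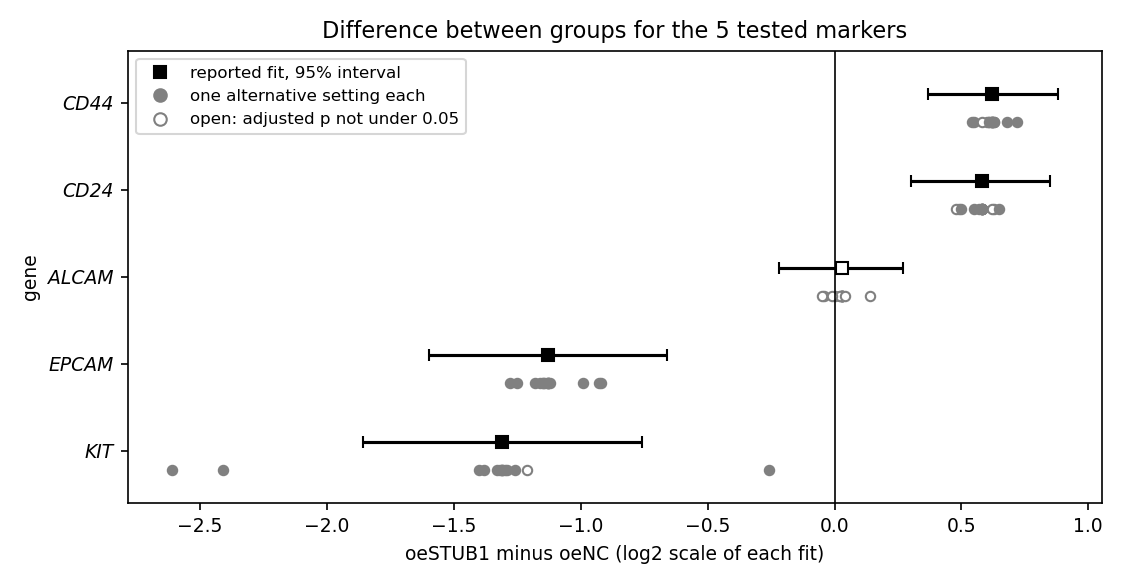
Difference between oeSTUB1 and oeNC for the 5 tested markers on the log2 scale of each fit, with squares and 95% intervals for the reported fit (open where the adjusted p was not under 0.05) and grey points for the alternative fits. The intervals of CD44 and CD24 lie above 0, those of EPCAM and KIT below 0, that of ALCAM spans 0, and the KIT estimate moves between -2.61 and -0.26 with the pseudocount or the use of fragments.

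Of 12 tested genes for hyaluronan metabolism, CD44 ligands and CD44 adaptors, 3 (25%) were called higher and 3 (25%) lower. The whole table gave 7.01% and 6.59%, and the median log2 fold change of the list was -0.04. The hyaluronan synthase HAS3 measured 2.785, 2.783 and 2.97 FPKM in oeNC and 12.63, 10.59 and 11.76 FPKM in oeSTUB1 libraries, a log2 fold change of 1.99 (adjusted p = 6.5e-05, limma). HAS2, a related synthase, was near its detection limit in oeNC cells with 3, 6 and 2 fragments and had 85, 69 and 68 fragments in oeSTUB1 libraries, a log2 fold change of 2.30 (adjusted p = 0.00065, limma). The groups did not overlap for either synthase. HAS2 passed the filter through its oeSTUB1 values.

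CEMIP and HYAL1, which take part in hyaluronan breakdown, were called lower, and the hyaluronidase HYAL2 was not called. CEMIP, a hyaluronan-binding protein required for its depolymerisation, fell from 4.406, 4.423 and 7.224 FPKM in oeNC to 0.8681, 0.5065 and 1.099 FPKM in oeSTUB1 libraries, a log2 fold change of -2.58 (adjusted p = 0.0013, limma). The hyaluronidase HYAL1 fell from 6.4 ± 0.502 to 3.58 ± 0.551 FPKM (SD, n = 3 each), a log2 fold change of -0.83 (adjusted p = 0.0054, limma), while HYAL2 was above the oeNC range in each oeSTUB1 library, with a log2 fold change of 0.28 that did not pass the test (adjusted p = 0.15, limma). HAS2, HAS3, CEMIP and HYAL1 were called in every alternative fit in which they could be tested. SPP1 (osteopontin), a further CD44 ligand, and NF2, an adaptor that restrains CD44, had log2 fold changes of -0.49 and 0.43 (adjusted p = 0.026 and 0.043, limma) and lost the call in 6 and 9 of 15 alternative fits. EZR, RDX and MSN, which link CD44 to actin, were not called, with log2 fold changes of -0.08, -0.21 and 0.03, although MSN was called without oeSTUB1 replicate 2 (0.16, adjusted p = 0.0432, limma). Of the regulators of CD44 exon choice, none of 4 tested genes was called by limma or limma-voom or had an unadjusted p under 0.05 (median log2 fold change 0.02). With 7.01% called higher and 6.59% lower in the whole table by limma, 4 genes can readily hold no call. ESRP1 and ESRP2 were below the filter. The gene-level values do not separate CD44 isoforms.

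ALCAM encodes an immunoglobulin-type adhesion molecule that binds itself and CD6. It lies on chromosome 3 from 105366909 to 105576900 on the plus strand. Its level was 58.15, 58.67 and 59.67 FPKM in oeNC and 62.93, 51.08 and 66.76 FPKM in oeSTUB1 libraries. The oeSTUB1 libraries lay on both sides of the oeNC libraries, with the lowest value in replicate 2. The means were 58.8 ± 0.773 and 60.3 ± 8.17 FPKM (SD, n = 3 each). The log2 fold change was 0.03 with a 95% interval of -0.22 to 0.27, that is a ratio between 0.858 and 1.21 (adjusted p = 0.898, limma). The gene was called in none of the 15 alternative fits, with adjusted p from 0.0536 to 0.997, the lowest being the fit without oeSTUB1 replicate 2 with a log2 fold change of 0.14. The interval leaves room for a moderate change in either direction. Of the ALCAM ligands and relatives, 2 were tested, the structurally related adhesion molecules MCAM and BCAM. Both were called higher, where the whole table gave 7.01%. MCAM rose from 0.372 ± 0.107 to 1.11 ± 0.225 FPKM (log2 fold change 1.37, adjusted p = 0.0073, limma). BCAM rose from 33.7 ± 0.977 to 44.7 ± 2.64 FPKM (0.41, adjusted p = 0.012, limma). BCAM lost the call whenever an oeNC library was left out (highest adjusted p = 0.0684, limma). CD6 was below the filter.

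KIT encodes the receptor tyrosine kinase for stem cell factor, which is the product of KITLG. It lies on chromosome 4 from 54657918 to 54740715 on the plus strand. Its level was 0.235, 0.2017 and 0.2959 FPKM in oeNC and 0.02818, 0.03519 and 0.05114 FPKM in oeSTUB1 libraries, which are 42, 36 and 56 fragments against 5, 6 and 9. The groups did not overlap, and every oeSTUB1 library was above the floor of 3 fragments. In fragments per library total the ratio of oeSTUB1 to oeNC was 0.156 (95% exact interval 0.0921 to 0.25, which covers counting error only). The fitted log2 fold change was -1.31 (95% interval -1.86 to -0.76, standard error 0.236, adjusted p = 0.0104, limma). At this level its size follows the pseudocount, from -0.26 with a pseudocount of 1 to -2.41 with 0.01, and it was -2.61 by limma-voom on the fragments. The call held in 13 of 14 alternative fits and was lost without oeNC replicate 3 (adjusted p = 0.0521, limma).

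KITLG was higher where KIT was lower. It measured 3.072, 3.213 and 3.866 FPKM in oeNC and 7.11, 6.334 and 9.235 FPKM in oeSTUB1 libraries, a log2 fold change of 1.13 (adjusted p = 0.0034, limma), and was called in all 15 alternative fits. The groups did not overlap. The related receptor genes PDGFRA, PDGFRB, CSF1R and FLT3 were all below the filter. HDC, an enzyme of mast cells, which express KIT, was between 0 and 0.0268 FPKM over the 6 libraries. The other 3 mast cell markers of the list had no row in the expression table.

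**Figure D3:**
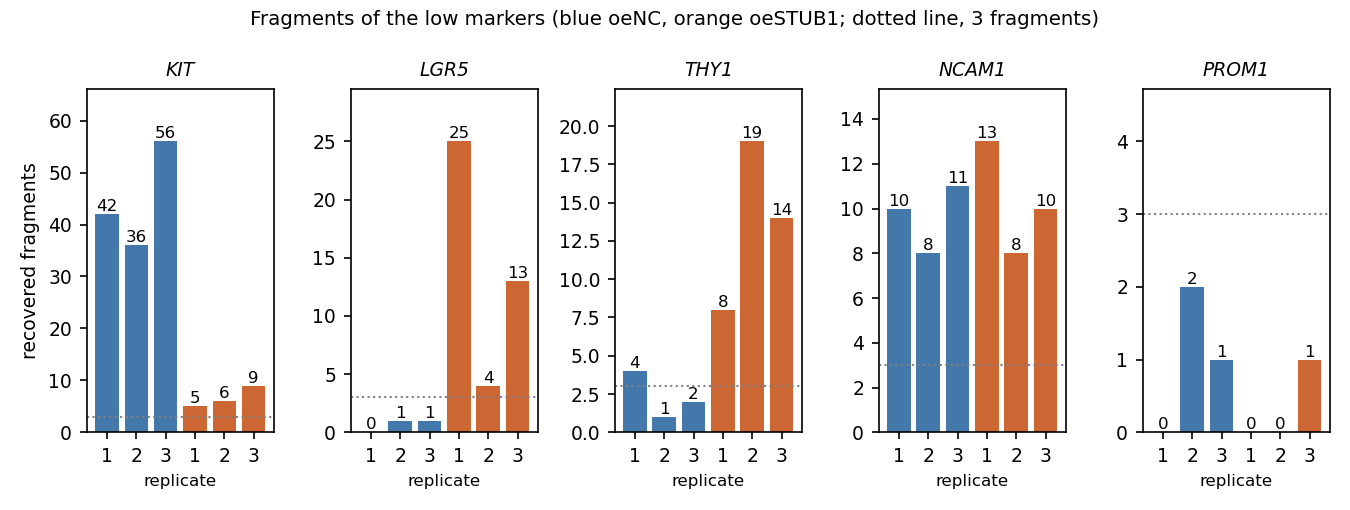
Recovered fragments per library for KIT, LGR5, THY1, NCAM1 and PROM1, with oeNC bars in blue, oeSTUB1 bars in orange, a separate linear axis from 0 for each gene and a dotted line at 3 fragments. KIT bars fall from 36 or more to 9 or fewer, LGR5 and THY1 bars are taller in every oeSTUB1 library, and NCAM1 and PROM1 bars are of similar height in both groups.

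LGR5 encodes a receptor for R-spondins and marks cycling stem cells of the intestinal crypt and other epithelia. It lies on chromosome 12 from 71439770 to 71586310 on the plus strand. Its fragments numbered 0, 1 and 1 in oeNC and 25, 4 and 13 in oeSTUB1 libraries, or at most 0.006295 FPKM against 0.02636 to 0.1583 FPKM. Each oeSTUB1 library was above each oeNC library, but the lowest of them, replicate 2, was only just above the floor. The ratio per library total was 21.9 with an exact interval of 5.7 to 187, which covers counting error and not the spread between libraries. When the filter was removed, LGR5 did not pass the test across all genes (adjusted p = 0.112, limma).

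The R-spondin module around LGR5 holds its paralogues, ligands, regulators and targets. Of 6 tested genes, none was called higher by limma or limma-voom, or at an unadjusted p under 0.05 (0 of 6 in each case). Of the same 6, 1 (16.7%) was called lower, where the whole table gave 7.01% higher and 6.59% lower. The median log2 fold change was -0.20. RSPO3, an R-spondin ligand, fell from 51.22, 50.31 and 50.32 FPKM in oeNC to 29.41, 26.99 and 22.61 FPKM in oeSTUB1 libraries, a log2 fold change of -0.95 (adjusted p = 0.0012, limma) that held in all 15 alternative fits. LGR4, the paralogue expressed at a high level in these cells, had 87.9 ± 1.05 and 72.5 ± 10 FPKM (SD, n = 3 each), a log2 fold change of -0.29 that did not pass the test (adjusted p = 0.12, limma). It passed without oeSTUB1 replicate 2, where the log2 fold change was -0.17 (adjusted p = 0.037, limma). LGR6 had 0.526 ± 0.113 and 0.767 ± 0.188 FPKM (log2 fold change 0.46, adjusted p = 0.2, limma). AXIN2, a general target of Wnt signalling, had a log2 fold change of 0.25 (adjusted p = 0.25, limma), and 0.37 without oeSTUB1 replicate 2 (adjusted p = 0.0247, limma). ASCL2 and OLFM4, which accompany LGR5 in intestinal stem cells, and SMOC2 were below the filter.

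THY1 encodes a small lipid-anchored glycoprotein of neurons, fibroblasts and some liver progenitor cells. It lies on chromosome 11 from 119417378 to 119424985 on the minus strand. Its fragments numbered 4, 1 and 2 in oeNC and 8, 19 and 14 in oeSTUB1 libraries. The groups did not overlap, and all values except one lay below 0.1 FPKM. The ratio per library total was 6.11 (exact interval 2.71 to 16.1), and without the filter the gene did not pass the test (adjusted p = 0.0579, limma). None of 5 tested integrin and syndecan partners of THY1 was called by limma or limma-voom, with 1 higher and 2 lower at an unadjusted p under 0.05. Their median log2 fold change was 0.14. In the whole table limma called 7.01% higher and 6.59% lower, shares at which 5 genes can readily hold no call. ITGAV, an integrin subunit with a log2 fold change of -0.37, was called lower without oeSTUB1 replicate 2 (-0.24, adjusted p = 0.0156, limma). The summed level of 7 fibroblast markers was 7.18 to 8.88 FPKM in oeNC and 7.53 to 10.5 FPKM in oeSTUB1 libraries, which overlapped. None of the 3 tested was called by limma or limma-voom (1 higher and 1 lower at an unadjusted p under 0.05). At the whole-table shares, 3 genes can also readily hold no call. ACTA2 made up most of the summed level, with 6.25 ± 0.33 FPKM in oeNC and 5.68 ± 0.844 in oeSTUB1 libraries (log2 fold change -0.14, not called). Within the list, COL1A1 averaged 1.62 ± 0.48 FPKM in oeNC and 2.81 ± 0.876 in oeSTUB1 libraries (SD, n = 3 each), and its libraries overlapped. COL3A1 had 5, 8 and 2 fragments against 12, 19 and 10, which did not overlap. LUM averaged 0.22 and 0.0596 FPKM and was called lower without oeSTUB1 replicate 2 (log2 fold change -1.30, adjusted p = 0.0254, limma). LUM passed the filter through its oeNC values and had 3, 11 and 2 fragments in the oeSTUB1 libraries. DCN and COL1A2, which also define fibroblasts, averaged 0 and 0.00715 FPKM in oeNC, and 0.00421 and 0.00381 in oeSTUB1 libraries. The part of these markers in the THY1 values was not tested.

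NCAM1 and PROM1 stayed low in both groups. NCAM1, a neural adhesion molecule that also marks reactive bile ductules, lies on chromosome 11 from 112961247 to 113278436 and had 10, 8 and 11 fragments in oeNC and 13, 8 and 10 in oeSTUB1 libraries, a ratio per library total of 1.11 (exact interval 0.65 to 1.92). PROM1, a pentaspan glycoprotein of membrane protrusions, lies on chromosome 4 from 15963076 to 16084378 on the minus strand and had 0, 2 and 1 fragments in oeNC and 0, 0 and 1 in oeSTUB1 libraries, at or under the floor throughout. A difference in PROM1 was not detectable at this depth. The floor of 3 fragments corresponds to 0.0147 to 0.0163 FPKM for PROM1. The paralogues PROM2 (0.0153 and 0.0117 FPKM in the group means) and NCAM2 (0.00693 and 0.0106 FPKM) were also below the filter, and the PROM1-binding deacetylase HDAC6 was not called (log2 fold change -0.16).

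Around NCAM1, the 5 tested relatives and partners included 1 (20%) called higher and 1 (20%) called lower, with a median log2 fold change of -0.15. The whole table gave 7.01% and 6.59%. FGFR1, a receptor that NCAM1 can engage, fell from 84.71, 81.63 and 77.61 FPKM in oeNC to 45.61, 39.67 and 39.85 FPKM in oeSTUB1 libraries, a log2 fold change of -0.96 (adjusted p = 0.00049, limma). GFRA1, a co-receptor for GDNF that can act with NCAM1, had 0.0767 ± 0.0143 and 0.661 ± 0.156 FPKM (SD, n = 3 each), a log2 fold change of 2.09 (adjusted p = 0.001, limma). GFRA1 passed the filter through its oeSTUB1 values. Both calls held in every alternative fit that tested them. The adhesion molecules L1CAM and NRCAM and the polysialyltransferase ST8SIA4 were not called. Neural markers summed to 125 to 130 FPKM in oeNC and 132 to 158 FPKM in oeSTUB1 libraries. Of the 5 tested, TUBB3 and ENO2 were called higher (log2 fold changes 0.48 and 0.28) and CHGB lower (-1.41), where the whole table gave 7.01% and 6.59%. TUBB3 was called in 7 of 15 alternative fits, ENO2 in 5 and CHGB in all 15.

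Further genes used as stem-cell markers were taken from lists of surface proteins, pluripotency regulators and biliary progenitor genes. Of 10 tested surface markers, 2 (20%) were called higher and 2 (20%) lower, where the whole table gave 7.01% and 6.59%. The median log2 fold change was -0.02. CD47, the signal that inhibits phagocytosis, rose from 3.38 ± 0.0705 to 5.04 ± 0.0566 FPKM (log2 fold change 0.56, adjusted p = 0.0052, limma), and CD9 is described with EPCAM. ABCG2, the transporter behind the side-population phenotype, fell from 17.2 ± 0.789 to 10.9 ± 1.55 FPKM (-0.67, adjusted p = 0.0074, limma). ITGA6, a laminin receptor subunit, fell from 25.3 ± 1.29 to 18.7 ± 2.88 FPKM (-0.44, adjusted p = 0.048, limma) but was called in 6 of 15 alternative fits.

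Among 10 tested pluripotency and stem-cell regulators, 1 (10%) was called higher by limma, where the whole table gave 7.01%, and 2 by limma-voom. None was called lower by either fit (6.59% in the whole table by limma), and the median log2 fold change was 0.11. The gene called by both was SOX2, a transcription factor of pluripotent and foregut progenitor cells, with 1.698, 1.286 and 1.452 FPKM in oeNC and 3.882, 3.247 and 3.472 FPKM in oeSTUB1 libraries (log2 fold change 1.21, adjusted p = 0.0014, limma). The call held in all 15 alternative fits. ALDH1A1, an aldehyde dehydrogenase used as a stem-cell marker, measured 3871, 3845 and 3702 FPKM in oeNC and 4503, 5105 and 4624 FPKM in oeSTUB1 libraries, which did not overlap. Its log2 fold change of 0.32 did not pass the test (adjusted p = 0.17, limma), but passed by limma-voom (adjusted p = 0.0492) and without oeSTUB1 replicate 2 (0.26, adjusted p = 0.0138, limma). MYC, KLF4, POU5F1 and BMI1 were not called (adjusted p from 0.21 to 0.43, limma), and NANOG and LIN28A were below the filter.

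Of 8 tested biliary and hepatic progenitor genes, 2 (25%) were called higher and 2 (25%) lower, where the whole table gave 7.01% and 6.59%. The median log2 fold change was -0.07. KRT19 measured 0.4561, 0.3736 and 0.5286 FPKM in oeNC and 2.505, 3.412 and 2.99 FPKM in oeSTUB1 libraries (log2 fold change 2.47, adjusted p = 0.00018, limma), and SOX4, a transcription factor of bile duct development, rose from 8.31 ± 0.372 to 16.7 ± 0.99 FPKM (1.00, adjusted p = 0.00038, limma). SPP1, counted above as a CD44 ligand and also a marker of the biliary lineage, fell as described. SOX9, FOXA2 and ONECUT1 were not called.

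Over the 13 lists together, 71 of 97 genes were tested, 12 (16.9%) were called higher and 9 (12.7%) lower, and the median log2 fold change was 0.01. The genes were chosen for their relation to the markers with earlier results of these data known, so that the comparison with the whole table (7.01% higher, 6.59% lower) is a description. Without oeSTUB1 replicate 2, 19 were called higher and 13 lower. These included the 21 called with all libraries, together with 11 others. Among those not described above were BACE1 (log2 fold change 0.41), ITGB1 (0.35) and SLC7A11 (-0.31).

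**Figure D4:**
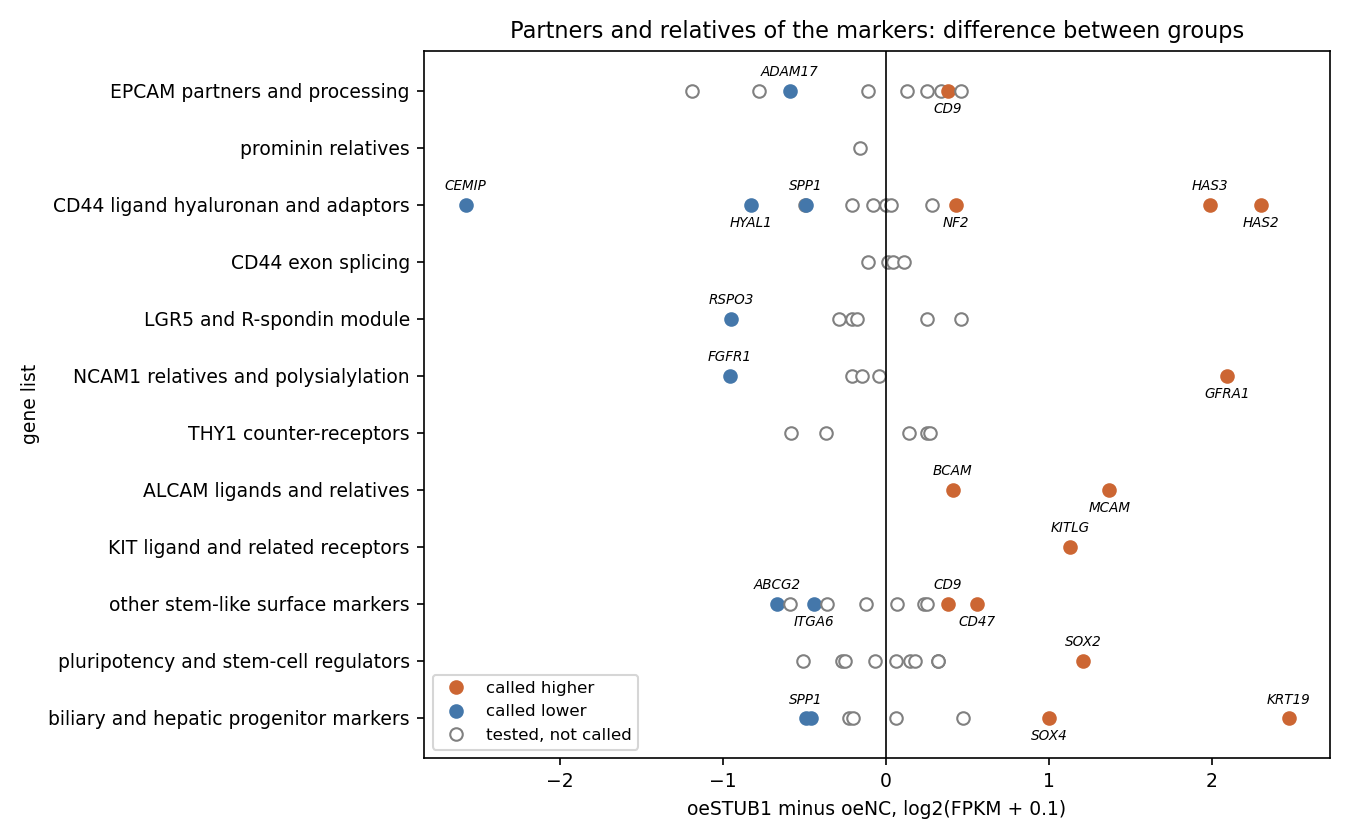
Log2 fold change, oeSTUB1 minus oeNC on log2(FPKM + 0.1), of each tested gene in the lists of partners and relatives, with filled orange or blue points for genes called higher or lower and open points for tested genes not called. The hyaluronan list spreads from CEMIP at -2.58 to HAS2 at 2.30, the CD44 splicing and THY1 partner lists hold open points alone, and KITLG, MCAM and BCAM lie to the right of 0.

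Epithelial markers were set beside EPCAM and CD24 because both belong to epithelial cells. The summed level of 8 epithelial and biliary genes was 7410 to 7990 FPKM in oeNC and 4720 to 6260 FPKM in oeSTUB1 libraries, which did not overlap. Of the 8 tested, 2 were called higher and 3 lower, where the whole table gave 7.01% and 6.59%. KRT8, KRT18 and CDH1 were called lower (log2 fold changes -0.57, -0.68 and -1.09) and KRT19 and MUC1 higher (2.47 and 0.75). KRT7, SOX9 and CLDN4 were not called (0.47, -0.23 and 0.90). KRT7 was called higher without oeSTUB1 replicate 2 (0.30, adjusted p = 0.0126, limma) and CLDN4 without oeNC replicate 3 (1.24, adjusted p = 0.0326, limma). The list thus held genes called in each direction, and KRT8 and KRT18 made up most of its summed level. KRT8 and KRT18 lost the call in 7 of 15 alternative fits each, and CDH1, KRT19 and MUC1 in none. The 7 leukocyte markers summed to 33 to 35.4 FPKM in oeNC and 26.2 to 26.8 FPKM in oeSTUB1 libraries. CD68, with means of 27.2 and 19.2 FPKM, made up most of this. Of the 5 tested, CD68 alone was called (log2 fold change -0.50), where the whole table gave 7.01% higher and 6.59% lower. CD14 averaged 5.05 and 5.24 FPKM, LYZ 0.944 and 1.38, and ITGAM 0.586 and 0.358. PTPRC and CD3E had group means of at most 0.225 FPKM. The 6 endothelial markers summed to at most 0.25 FPKM in any library. The part of the lower KRT8, KRT18 and CDH1 levels in the EPCAM result was not tested.

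For each tested marker, the gene whose log2 values ran closest to it over the 6 libraries was found among those averaging 1 FPKM or more. The 6 points share 2 groups of 3, so that any gene that separates the groups correlates with any other. The closest genes were SRR for EPCAM (Pearson's r = 0.9982), PGS1 for CD24 (0.9967), MID2 for CD44 (0.9975), SLC46A1 for ALCAM (0.9973) and CMBL for KIT (0.9979). The number of genes with r over 0.95 ran from 134 for EPCAM to 365 for KIT, out of 11374 compared for EPCAM and 11375 for KIT.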

How the data were processed

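The 6 RNA-seq libraries of TFK1 cells comprised 3 of oeNC and 3 of oeSTUB1, with groups and replicate numbers from the sample labels. The authors deposited FPKM values for 23569 genes. The submitters' processing notes name fastp 0.20.1, HISAT2 2.1.0, HTSeq 0.11.2, R 3.2.0, DESeq2 1.22.2 and GRCh38.p13. Whether reads were counted by strand is not given in the sources used here.

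Groups were compared two-sided by limma 3.58.1 (R 4.3.3), using trended eBayes on log2(FPKM + 0.1), over the 15353 genes averaging 0.1 FPKM or more, with Benjamini-Hochberg adjustment over all of them, and the script was tested on simulated data. Fold changes on this scale understate those of low genes. Whole fragments were recovered for 23569 genes (100%) from the steps of the FPKM values, with FPKM rebuilt to within 4.9e-06, and may be too low by a common divisor. Intervals and floors from fragments cover counting error only.

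The markers and the 13 lists of related genes were chosen with earlier results of these data known. All 9 markers are named, and of each list the called genes (at most the 4 with the largest change) and direct ligands or paralogues. Some genes of the lists are not reported here. Other list genes, uncalled or NF2, were named after their values were seen. Same-numbered libraries did not deviate together (correlations -0.049, -0.052 and 0.062), and the numbers were not used as pairs. Positions are from GENCODE release 29 on GRCh38.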

Additional observations from a re-analysis of the deposited data

How the results depend on the processing

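The 2 markers called higher and 2 called lower (limma) kept these counts with a pseudocount of 1 or 0.01, without a filter, with quantile normalization, median-ratio scaling, no eBayes trend, and limma-voom on recovered fragments. With the replicate number as a block, 2 were higher and 2 lower. The block called 741 genes higher and 747 lower in the whole table. Leaving out single libraries gave 1 to 2 markers higher and 1 to 2 lower. A filter at a mean of 1 FPKM left 1 lower, since KIT was not tested. At an adjusted p under 0.01, 1 was higher and 0 lower, EPCAM and KIT both having 0.0104. With an absolute log2 fold change over 1 also required, 0 were higher, CD24 and CD44 lying at 0.58 and 0.62. All 4 had an unadjusted p under 0.05, which follows from the call and is not a further check.

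The 12 related genes called higher and 9 called lower became 7 and 1 when an absolute log2 fold change over 1 was required, and leaving out single libraries gave 9 to 19 higher and 6 to 13 lower, the highest of both without oeSTUB1 replicate 2. With the block, TSPAN8 was called lower (log2 fold change -1.19, adjusted p = 0.015, limma) and, among the fibroblast markers, COL1A1 higher (0.75, adjusted p = 0.0205). Of the 21, 15 were called in every alternative that tested them and none changed sign. These alternatives for the related genes were chosen after seeing the data. In the whole table, calls ran from 477 higher and 456 lower without oeNC replicate 2 to 2274 higher and 1838 lower without oeSTUB1 replicate 2. The log2 ratios of mean FPKM, without a pseudocount, were -2.68 for KIT, 4.45 for LGR5 and 2.61 for THY1, and at these fragment numbers their size is uncertain. Depth limits PROM1, NCAM1, LGR5 and THY1, which had at most 25 fragments in any library.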
